A study of Mus musculus with 10 samples.

Results

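Dusp1, Dusp6, Spry1, Spry2 and Spry4 encode inhibitors of MAP kinase signalling, and their transcripts were followed in mouse kidneys on 10 single-colour Affymetrix arrays. The genes are 5 of the 12393 that the platform annotation names by a single symbol, and all probe sets mapped to them were taken, which gave 7 of the 22690 probe sets on the array. Dusp1 (1448830_at), Dusp6 (1415834_at) and Spry1 (1415874_at) have a single probe set each, while Spry2 (1436584_at and 1421656_at) and Spry4 (1422020_at and 1422021_at) have a pair. The genes were chosen on earlier results of the same arrays, among them the differences in signal between the kidney groups. Those differences are therefore given for the members as a description, without a p-value.

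The kidneys came from male C57/BLACK6 mice aged 7 weeks and weighing about 20 g. The contralateral kidneys were the unclamped organs of mice whose left renal artery and vein had been clamped for 45 min under ether, and they were taken 3 h after reperfusion, following intraperitoneal 200 µM s4U (4-thiouridine, a nucleoside that labels RNA made after it is given) with 3H-cytidine at 1 h and 2 h. The normal kidneys came from untreated mice that received the same injections at 0 h and 1 h and were killed at 2 h. The labels describe no sham operation, so clamping of the other kidney, surgery, ether and the time schedule cannot be told apart. RNA was hybridised as newly transcribed RNA, amplified total RNA and total RNA, with 1, 2 and 2 arrays per kidney group, called biological replicates in the titles. The labels do not say which mice the arrays share, or how many animals entered each RNA, so the spread between arrays may be partly technical.

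In textbook accounts, growth factors bind receptor tyrosine kinases and switch on RAS, RAF, MEK and the kinase ERK, and ERK raises transcription of genes whose products then quiet the same pathway. Dual-specificity phosphatases remove phosphate from MAP kinases: Dusp1 is a nuclear, immediate early enzyme that acts on p38, JNK and ERK, whereas Dusp6 is cytoplasmic and prefers ERK. Sprouty proteins act further upstream, between the receptor and RAF, and in the developing mouse kidney Spry1 restrains signalling through the receptor Ret.

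The promoters of the 4 genes whose signal could be analysed are shown because their signal in newly transcribed RNA is set against that in total RNA. Each runs from 250 bases before to 50 bases after the annotated start, as given by RefSeq for GRCm38.p6. They lie at chr17:26508423-26508722 on the minus strand (Dusp1), chr10:99262981-99263280 on the plus strand (Dusp6), chr3:37639697-37639996 on the plus strand (Spry1) and chr14:105896770-105897069 on the minus strand (Spry2). Capitals mark matches to any of the motifs searched.
Dusp1: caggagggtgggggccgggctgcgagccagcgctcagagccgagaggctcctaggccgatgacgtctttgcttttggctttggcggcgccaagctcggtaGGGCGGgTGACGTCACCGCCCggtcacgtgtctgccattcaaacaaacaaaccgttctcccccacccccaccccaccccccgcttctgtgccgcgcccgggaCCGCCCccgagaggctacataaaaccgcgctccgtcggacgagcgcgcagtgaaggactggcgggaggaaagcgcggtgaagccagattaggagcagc
Dusp6: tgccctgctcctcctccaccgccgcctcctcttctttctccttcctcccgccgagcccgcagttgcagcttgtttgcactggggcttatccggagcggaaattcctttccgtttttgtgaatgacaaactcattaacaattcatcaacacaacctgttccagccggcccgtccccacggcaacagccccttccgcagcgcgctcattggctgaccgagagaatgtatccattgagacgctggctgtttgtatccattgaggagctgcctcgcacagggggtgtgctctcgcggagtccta
Spry1: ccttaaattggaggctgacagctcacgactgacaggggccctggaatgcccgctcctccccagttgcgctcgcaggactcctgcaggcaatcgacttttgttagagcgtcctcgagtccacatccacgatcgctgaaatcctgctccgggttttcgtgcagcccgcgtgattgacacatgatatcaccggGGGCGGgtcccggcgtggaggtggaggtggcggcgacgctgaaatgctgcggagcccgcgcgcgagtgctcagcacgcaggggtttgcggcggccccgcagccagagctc
Spry2: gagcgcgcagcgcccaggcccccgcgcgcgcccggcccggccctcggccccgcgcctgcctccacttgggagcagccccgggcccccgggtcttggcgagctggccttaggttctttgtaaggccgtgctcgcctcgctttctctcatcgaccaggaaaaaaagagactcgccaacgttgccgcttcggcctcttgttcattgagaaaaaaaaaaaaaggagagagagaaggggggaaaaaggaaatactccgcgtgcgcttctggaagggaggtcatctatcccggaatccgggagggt

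Both strands were searched for the cAMP response element TGACGTCA, the AP-1 site TGANTCA, the ETS site CCGGAAGT, the TATA box TATAAA, the GC box GGGCGG, and, by their names alone, the glucocorticoid response element and the CArG box. The Dusp1 window held the cAMP response element, whose first base lay at -143 from the start, and GC boxes at -150, -135 and -48, none of which overlapped it. The Spry1 window held a GC box at -60. In the Dusp6 and Spry2 windows none of these letters were found. Of 32851 promoter windows of the same length, 1.79% held TGACGTCA and 35.7% held GGGCGG. AP-1 letters were in 7.81%, the ETS site in 3.89%, the TATA box in 13.6%, the CArG box in 1.63% and the glucocorticoid element in 0.00913%. A match describes the letters and does not show that a factor binds there.

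The deposited intensities were not on a common scale: the median over probe sets was 18.6 on the contralateral and 70.25 on the normal newly transcribed array, and lay between 26.6 and 59.7 on the other 8. Comparisons therefore use quantile-normalized values of log2(intensity + 11.8), called normalized log2 signal here, a scale that understates the change of dim probe sets. The ratio of 3′ to 5′ Gapdh signal, which is larger where the transcript's 5′ end is poorly represented, was 68.9 on the contralateral and 12.7 on the normal newly transcribed array, 4.21 to 6.23 on amplified arrays and 0.938 to 1.12 on total RNA arrays. Kidney markers were bright: Slc34a1, the phosphate transporter of the proximal tubule, had deposited intensities of 3233 to 4376 on the total RNA arrays. Of 34 tested marker genes of 9 cell type lists, 0 passed the test between contralateral and normal total RNA. In amplified RNA, Lrp2, the proximal tubule receptor megalin, fell by 0.59 ± 0.13 (SE, limma adjusted p = 0.0148) and Scnn1g, a subunit of the collecting duct sodium channel, rose by 0.47 ± 0.13 (adjusted p = 0.0456). Thus 1 of the 34 was lower and 1 higher, beside 6.22% and 4.1% of all tested probe sets. The other proximal tubule markers ran from -0.12 (Slc22a6) to 0.23 (Cubn). The other collecting duct markers, Aqp2 and Aqp3, differed by 0.48 and -0.46. In bulk RNA, fewer cells of a type and less RNA per cell cannot be told apart.

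A filter on dim signal kept the 13575 probe sets with a mean normalized log2 signal above 5.27 (the 40th percentile), and these were tested. Of the members' 7 probe sets 4 passed, covering Dusp1, Dusp6, Spry1 and Spry2. Just inside was Spry2 1436584_at, with a mean of 6.26. Just outside was Spry2 1421656_at, with 5.11. The Spry4 probe sets averaged 4.14 and 4.05.

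**Figure D1:**
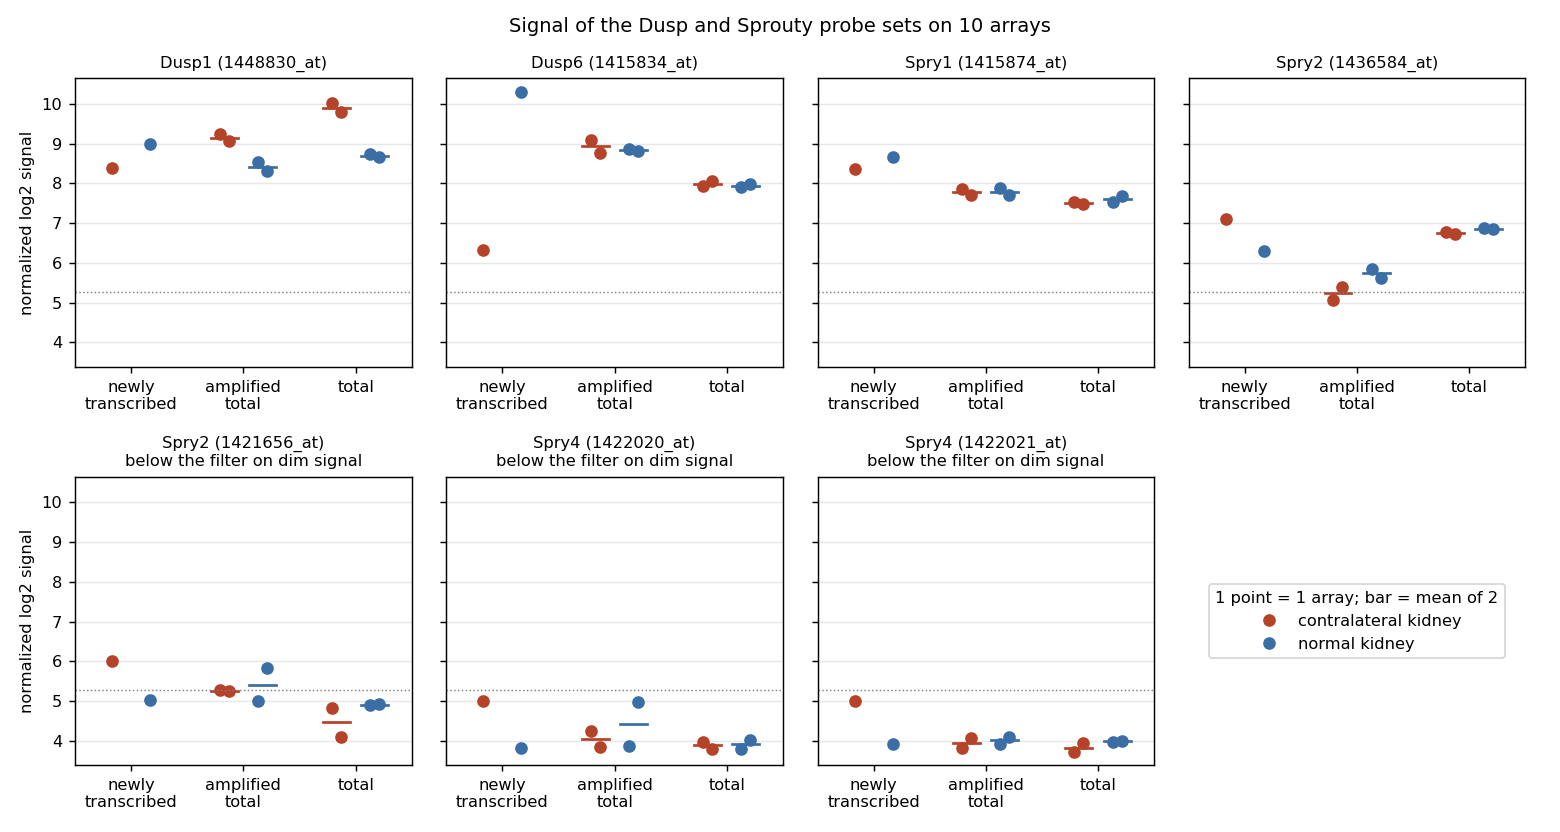
Normalized log2 signal (y axis) of the 7 probe sets by RNA preparation (x axis), 1 point per array, contralateral kidneys in red left of normal kidneys in blue, with bars at the mean of 2 arrays and a dotted line at the filter value of 5.27. Dusp1 is highest in contralateral total RNA, and the newly transcribed Dusp6 points lie farthest apart, at 6.32 in contralateral and 10.31 in normal kidney.

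Dusp1 was higher in contralateral than in normal kidneys in both forms of total RNA. In total RNA its deposited intensity was 852.8 and 813.9 in contralateral kidneys, against 491.1 and 468.7 in normal kidneys. The normalized log2 signal averaged 9.91 ± 0.15 in contralateral and 8.70 ± 0.07 in normal total RNA (SD, n = 2 each), a difference of 1.20 ± 0.13 (SE from limma), or 2.31-fold. The groups did not overlap, as was so for 22.4% of all tested probe sets in that direction and 24.2% in the opposite one, and 49 of the 13575 tested probe sets had a larger positive difference.

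Amplified RNA gave a smaller Dusp1 difference of the same direction. Deposited intensities were 453.7 and 715.8 in contralateral kidneys, against 383 and 343.7 in normal kidneys. The normalized log2 signal averaged 9.15 ± 0.13 in contralateral and 8.42 ± 0.16 in normal amplified RNA (SD, n = 2 each), a difference of 0.73 ± 0.13 (SE), or 1.66-fold, without overlap (29.5% of all tested probe sets were likewise higher and 25.5% lower). In newly transcribed RNA, with a single array per kidney group, the order was the opposite: 8.39 in the contralateral and 8.98 in the normal kidney, a difference of -0.60, from deposited intensities of 136.4 and 830.9. That difference lay between the 25th and 75th percentile of all tested probe sets there, -0.73 and 0.64. By mean level the groups ran from contralateral total RNA through contralateral amplified, normal newly transcribed, normal total and normal amplified to contralateral newly transcribed RNA. The last of these, at 8.39, lay within the spread of normal amplified RNA at 8.42 ± 0.16.

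Dusp6 was close to equal between the kidneys in both forms of total RNA and far apart in newly transcribed RNA. On the newly transcribed arrays its deposited intensity was 28.9 in the contralateral kidney, against 1779.3 in the normal kidney. The normalized log2 signals were 6.32 and 10.31 in contralateral and normal kidney, a difference of -4.00, or 16.0-fold lower in the contralateral kidney. Only 3 of the 13575 tested probe sets had a more negative difference. The pair of arrays has no replicate check. The contralateral array was also the dimmer of the pair, with the higher Gapdh ratio given above.

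The total RNA measurements of Dusp6 did not show this gap. In amplified RNA its normalized log2 signal was 9.10 and 8.76 in contralateral kidneys, against 8.88 and 8.82 in normal kidneys, a difference of 0.08 ± 0.13 (SE). In total RNA it was 7.93 and 8.06 in contralateral kidneys, against 7.90 and 7.99 in normal kidneys, a difference of 0.05 ± 0.13. The groups overlapped in both. By mean level Dusp6 ran from normal newly transcribed RNA through the amplified groups and the total RNA groups to contralateral newly transcribed RNA, and within each form of total RNA the kidneys did not differ beyond their spread.

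Spry1 differed little between the kidneys. Its normalized log2 signal on the newly transcribed arrays was 8.36 in the contralateral and 8.66 in the normal kidney. In amplified RNA it was 7.86 and 7.70 in contralateral kidneys, against 7.88 and 7.71 in normal kidneys, a difference of -0.01 ± 0.13 (SE). In total RNA it was 7.52 and 7.48 in contralateral kidneys, against 7.54 and 7.68 in normal kidneys, a difference of -0.11 ± 0.13. Both differences with a standard error are smaller than it. In order of level, both newly transcribed arrays lay above the amplified arrays, and these above the total RNA arrays, at 7.48 to 7.68.

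Spry2 had its clearest signal in 1436584_at. That probe set read 7.11 in the contralateral and 6.30 in the normal kidney on the newly transcribed arrays. The deposited intensities behind these values run the other way, 52.7 in the contralateral and 117 in the normal kidney. The normalized log2 difference of 0.80, which 2712 of the 13575 tested probe sets exceeded, has no replicate check. In amplified RNA the probe set read 5.07 and 5.40 in contralateral kidneys, against 5.86 and 5.62 in normal kidneys, a difference of -0.51 ± 0.17 (SE) without overlap, as for 25.5% of all tested probe sets in that direction. In total RNA it read 6.77 and 6.72 in contralateral kidneys, against 6.88 and 6.84 in normal kidneys, a difference of -0.11 ± 0.17, smaller than its standard error. After normalization the contralateral newly transcribed array was thus the highest of the 10 for this probe set, and the contralateral amplified arrays were the lowest.

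The dim probe sets of Spry2 and Spry4 are described without a test. Spry2 1421656_at had deposited intensities of 22.5 in the contralateral and 31.4 in the normal kidney on the newly transcribed arrays. Its differences on the normalized log2 scale were 0.97 in newly transcribed, -0.15 in amplified and -0.44 in total RNA. Spry4 1422020_at read between 1.8 and 19.6 in deposited intensity over all arrays, the highest value being 1 normal amplified array, and Spry4 1422021_at read between 1.2 and 9.5. The Spry4 differences were 1.21 and 1.07 in newly transcribed RNA and between -0.39 and -0.03 in amplified and total RNA, on values this close to the dim end of the arrays.

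**Figure D2:**
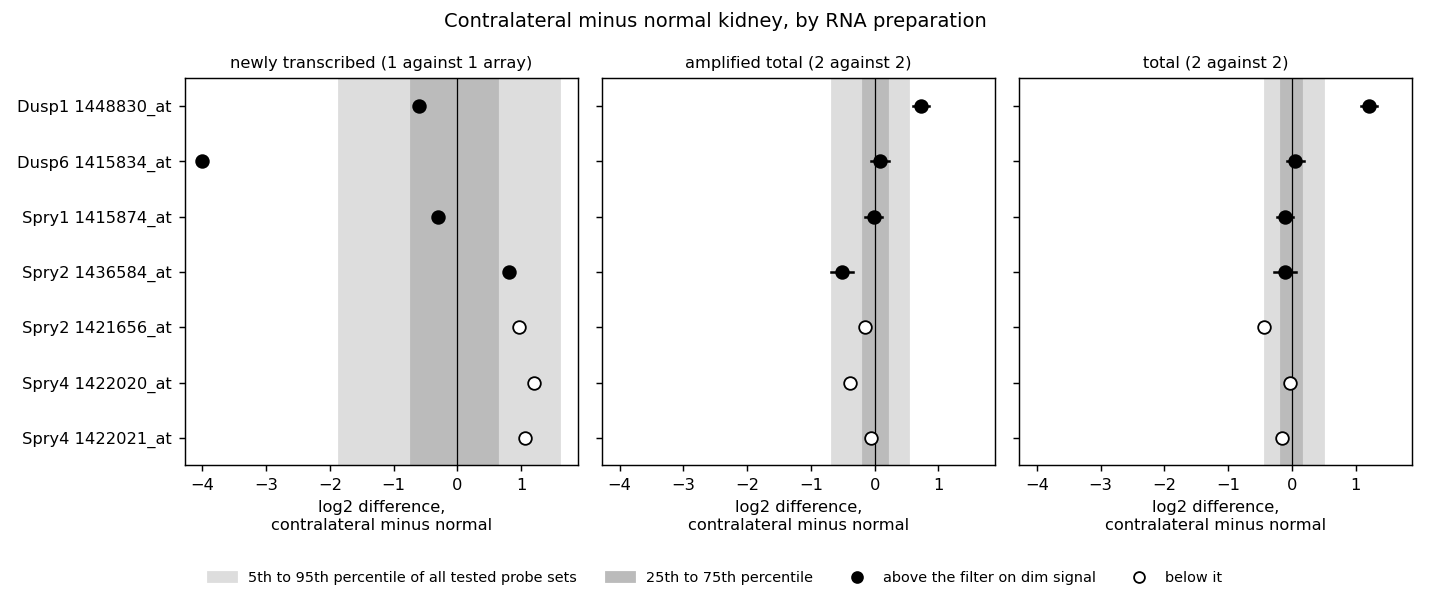
Difference of normalized log2 signal, contralateral minus normal (x axis), for each probe set (rows) in newly transcribed, amplified and total RNA, with limma standard errors as bars where 2 arrays stand against 2, filled points above the filter and open points below it. Grey bands span the 25th to 75th and the 5th to 95th percentile of all tested probe sets: Dusp1 lies right of the wide band in amplified RNA (0.73) and total RNA (1.20), and Dusp6 far left of it in newly transcribed RNA (-4.00).

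Set against the arrays as a whole, 1 of the 4 tested member probe sets, Dusp1, lay past the test's threshold in total RNA, where 1.91% of all tested probe sets did, 1.58% as higher and 0.331% as lower. In amplified RNA it was again 1 of 4, Dusp1, against 10.3%, of which 4.1% were higher and 6.22% lower. Without normal amplified array 2 this count was 0, with a Dusp1 difference of 0.61. Between the newly transcribed arrays 1 of 4, Dusp6, differed at least 2-fold, as did 32.8% of all tested probe sets, 18.5% as lower and 14.4% as higher. The members' median difference was -0.45 in newly transcribed, 0.04 in amplified and -0.03 in total RNA, beside 0.00, 0.02 and -0.01 over all tested probe sets. Since these contrasts were known when the genes were picked, nothing is read from the counts. The members did not vary together: over the 10 arrays, which share preparations and kidneys, Pearson's r for the 6 pairs of tested probe sets ran from -0.63 to 0.25.

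Other cell type markers also differed between the newly transcribed arrays. The summed normalized signal of 5 fibroblast and smooth muscle genes was 3263 in the contralateral and 1041 in the normal kidney, and of these genes 4 were at least 2-fold higher and 1 lower. Summed signal of 8 leukocyte genes was 2341 in the contralateral and 1200 in the normal kidney, a sum in which Csf1r is the brightest gene. Of the 5 leukocyte genes above the filter, Csf1r was at least 2-fold higher and Ptprc differed by -0.52. For 5 endothelial genes the summed signal was 406 in the contralateral and 612 in the normal kidney. Of these, Pecam1 and Kdr were at least 2-fold lower (-1.55 and -1.45), while Emcn, Tek and Cdh5 differed by -0.19, 0.02 and 0.46. For 4 genes of fat, skeletal muscle and adrenal the sum was 316 in the contralateral and 101 in the normal kidney. The part of cell makeup, array brightness and RNA quality in the members' newly transcribed differences was not tested.

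The comparison of RNA preparations asks how the share of a transcript among newly made RNA relates to its share in total RNA. The members were picked with results of these same arrays known, so the p-values for them are not independent evidence. Spry1 and Spry2, the Sprouty genes above the filter, were both higher in newly transcribed than in amplified total RNA. Against unamplified total RNA the probe sets differed: Spry1 averaged 8.51 in newly transcribed and 7.56 in total RNA, whereas Spry2 1436584_at averaged 6.70 in newly transcribed and 6.80 in total RNA, so it stood above the amplified arrays and not above the total RNA arrays on average. Spry1 rose by 0.72 ± 0.16 on the log2 scale (SE, limma adjusted p = 0.00843), averaging 8.51 ± 0.21 over 2 newly transcribed and 7.79 ± 0.10 over 4 amplified arrays (SD). Spry2 1436584_at rose by 1.22 ± 0.26 (adjusted p = 0.00765), averaging 6.70 ± 0.57 over newly transcribed and 5.49 ± 0.33 over amplified arrays. Neither gene's arrays overlapped, and 16.6% of all tested probe sets had both newly transcribed arrays above all amplified ones, while 21.1% had both below. Within kidneys the Spry1 difference was 0.58 in contralateral and 0.86 in normal kidneys, and the Spry2 difference 1.87 and 0.56 in contralateral and normal kidneys. Without the contralateral newly transcribed array the fitted Spry2 difference was 0.68. The dim Spry2 probe set 1421656_at showed 0.74 in contralateral and -0.38 in normal kidneys. Of the 4 tested member probe sets 2 passed as higher, beside 11.9% of all tested probe sets (28.6% in either direction, 16.7% as lower). Of 34 tested cell type markers 17 were lower in newly transcribed than in amplified RNA and 1 was higher, among them 4 of 5 endothelial and 4 of 6 proximal tubule genes lower. The Gapdh 3′ to 5′ ratio was 12.7 to 68.9 on newly transcribed and 4.21 to 6.23 on amplified arrays, and the part of either in the members' differences was not tested.

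Dusp1 and Dusp6 did not pass this test, and their directions differed between the kidneys. The log2 difference between newly transcribed and amplified RNA was -0.10 ± 0.32 (SE, limma adjusted p = 0.841) for Dusp1 and -0.57 ± 0.72 (adjusted p = 0.582) for Dusp6. Within kidneys, newly transcribed minus amplified was -0.76 in contralateral and 0.56 in normal kidneys for Dusp1. For Dusp6 it was -2.61 in contralateral and 1.47 in normal kidneys. Each direction rests on a single newly transcribed array: without the contralateral array the fitted Dusp6 difference was 1.44, and without the normal array it was -2.60. The corresponding Dusp1 values were 0.68 and -0.89. In each of these fits newly transcribed RNA has 1 array, which is assumed to vary like the other groups, since the spread comes only from them.

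**Figure D3:**
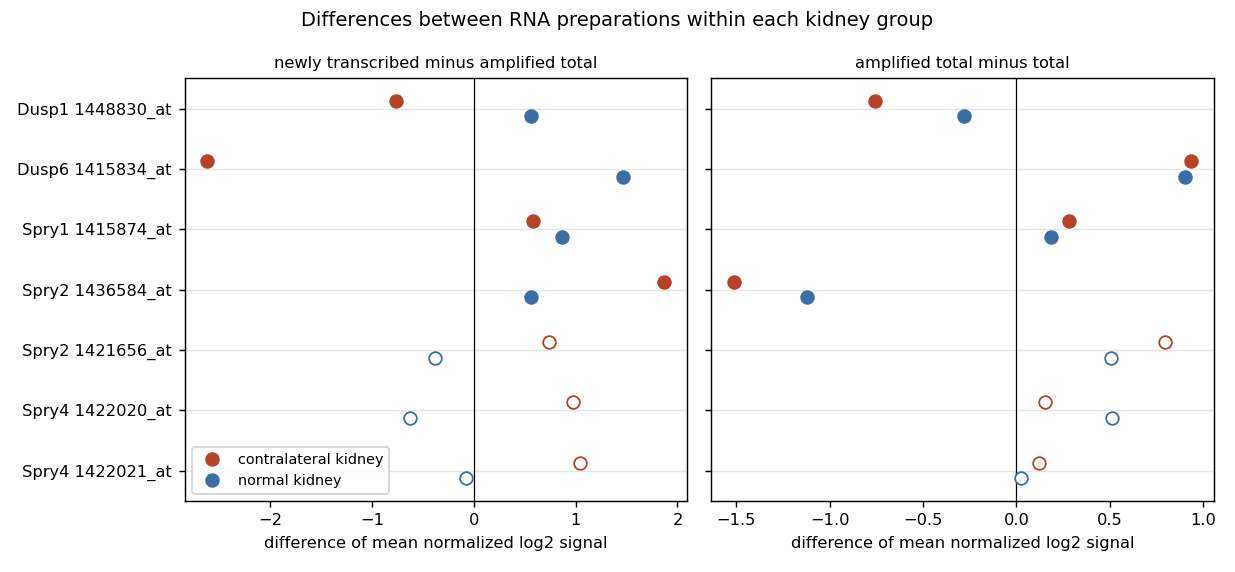
Difference of mean normalized log2 signal between preparations (x axis), newly transcribed minus amplified at left and amplified minus total at right, for each probe set (rows) in contralateral (red) and normal (blue) kidneys, with open points for probe sets below the filter. Newly transcribed minus amplified has opposite signs in the kidneys for Dusp6 (-2.61 in contralateral, 1.47 in normal) and Dusp1, and the same sign for Spry1 and Spry2 1436584_at.

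Some members also differed between amplified and total RNA. Spry2 1436584_at fell by 1.32 ± 0.22 in amplified relative to total RNA (SE, limma adjusted p = 0.00117), averaging 5.49 ± 0.33 over 4 amplified and 6.80 ± 0.07 over 4 total RNA arrays (SD), with differences of -1.51 in contralateral and -1.12 in normal kidneys. Its other probe set, 1421656_at, lay on the opposite side, at 5.34 ± 0.35 in amplified and 4.69 ± 0.39 in total RNA, and was below the filter. Of the 4 tested probe sets 1 passed, beside 38.4% of all tested probe sets, 20.7% as higher and 17.6% as lower. Lower without overlap were 22.2% of all tested probe sets, and higher without overlap 27.2%.

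Dusp6 averaged 8.89 ± 0.15 over amplified and 7.97 ± 0.07 over total RNA arrays (SD, n = 4 each), without overlap, yet in the fit that also holds the newly transcribed arrays its difference of 0.92 ± 0.59 (SE) did not pass (limma adjusted p = 0.240). Without those 2 arrays the difference was 0.93 and passed (limma adjusted p = 2.17e-05). So did 58.2% of all tested probe sets in that setting, beside 38.4% with the 2 arrays. Dusp1 differed by -0.52 ± 0.26 (adjusted p = 0.146), and by -0.52 without the newly transcribed arrays (limma adjusted p = 0.00331). Spry1 differed by 0.23 ± 0.13 (adjusted p = 0.184), and by 0.52 when arrays were scaled to a common median (limma adjusted p = 0.0116). Of all tested probe sets 43.0% passed under that scaling. That scaling moved the median difference of all tested probe sets between amplified and total RNA to 0.20, beside 0.04 under quantile normalization, and 70.1% of the calls between these preparations were then higher, beside 54.1%.

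Among other genes of the pathway, several that ERK activity is known to induce rose in contralateral kidneys. Of 17 listed ERK-induced transcripts 9 were tested, and 4 rose in contralateral total RNA while 0 fell, beside 1.58% of all tested probe sets higher and 0.331% lower. The list was drawn up with earlier results of these arrays known, so the count is not independent evidence of its direction. Egr1, an immediate early zinc finger factor, had normalized log2 signals of 7.51 and 7.35 in contralateral kidneys, against 6.53 and 6.18 in normal kidneys, and rose by 1.08 ± 0.16 (SE, limma adjusted p = 0.00748). Fos, a subunit of AP-1, rose by 0.86 ± 0.19 (adjusted p = 0.0461). Ier3, an early response gene, rose by 0.71 ± 0.14 (adjusted p = 0.0332), and Mcl1, a BCL2 family survival protein, by 0.52 ± 0.10 (adjusted p = 0.0307). The list's median difference was 0.52, beside -0.01 over all tested probe sets. The count was 0 without normal total array 2 or contralateral total array 1, 1 without normal total array 1 or either normal amplified array, and 2 without contralateral total array 2. It was 2 with median scaling, 1 with no filter and 2 without the intensity trend.

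Amplified RNA gave the same 4 ERK-induced genes as higher, beside 4.1% of all tested probe sets, with a median of 0.62 over the 9. Fos rose by 1.29 ± 0.19 (limma adjusted p = 0.00158), with normalized log2 signals of 6.69 and 6.37 in contralateral kidneys, against 5.27 and 5.22 in normal kidneys. Egr1 rose by 0.75 ± 0.16 (adjusted p = 0.0122), Mcl1 by 0.64 ± 0.10 (adjusted p = 0.00260) and Ier3 by 0.62 ± 0.14 (adjusted p = 0.0203). Without normal amplified array 1 or contralateral amplified array 1 the count was 2, and the calls of Egr1 and Ier3 were lost when either normal amplified array or contralateral amplified array 1 was left out. Of 5 further Mcl1 probe sets 3 passed in total RNA, all in the same direction, and 2 in amplified RNA. Between the newly transcribed arrays 4 of the 9 were at least 2-fold higher in the contralateral kidney and 1 lower, beside 14.4% of all tested probe sets higher and 18.5% lower. The 4 were Egr1, Junb, Ier3 and Plaur, and the lower gene was Ccnd1 (-1.42). Junb, Plaur and Ccnd1 are named after their values were seen. Ccnd1 differed by -0.24 in total and -0.29 in amplified RNA and passed the test in neither. On the newly transcribed arrays Egr1 was at 9.86 in the contralateral and 8.03 in the normal kidney, from deposited intensities of 422.9 and 447. Fos and Mcl1 differed by 0.46 and 0.27 there, and of the further Mcl1 probe sets 1416880_at, 1416881_at and 1448503_at gave -0.92, -0.67 and -0.45, and the other two gave 0.55 and 1.06.

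Factors that bind AU-rich elements, sequences found in many short-lived transcripts, included a gene that rose. Zfp36 (tristetraprolin), which speeds decay of such transcripts, had normalized log2 signals of 8.58 and 8.27 in contralateral total RNA, against 7.35 and 7.41 in normal total RNA, and rose by 1.05 ± 0.14 (SE, limma adjusted p = 0.00500). Its call was lost without contralateral total array 1 (adjusted p = 0.0677) or normal total array 2 (adjusted p = 0.0509). In amplified RNA its difference was 0.40 ± 0.14 (adjusted p = 0.108). Elavl1, a stabilising factor, fell by 1.11 ± 0.26 in amplified RNA (limma adjusted p = 0.0215), and it differed by -0.06 ± 0.26 in total RNA (adjusted p = 0.952). Its further probe set, 1431037_a_at, gave -0.64 in amplified (adjusted p = 0.0653) and -0.64 in total RNA (adjusted p = 0.154). Without contralateral amplified array 1 the Elavl1 difference in amplified RNA was -0.57, and without contralateral amplified array 2 it was -1.63. The Elavl1 call was lost without normal amplified array 1 (adjusted p = 0.0973) or 2 (adjusted p = 0.147). Of 5 tested genes in the list 1 passed in each of these comparisons, Zfp36 as higher in total and Elavl1 as lower in amplified RNA. Of all tested probe sets 1.91% passed in total and 10.3% in amplified RNA.

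The members' relatives are few, and the share of all tested probe sets past the threshold between the kidneys was 1.91% in total and 10.3% in amplified RNA. Of 4 tested further dual-specificity phosphatases 0 passed in total or amplified RNA by limma, with differences of -0.05 to 0.41 and -0.12 to 0.55. Of 2 tested Spred genes, membrane relatives of the Sproutys, 0 passed in total RNA and Spred2 fell by 0.43 ± 0.12 in amplified RNA (limma adjusted p = 0.0445), a call that was lost whichever amplified or total RNA array was left out (adjusted p of 0.0551 to 0.212). Both Spred genes were higher in newly transcribed than in amplified RNA: Spred1, named after its value was seen, rose by 1.63 ± 0.19 (adjusted p = 0.000404) and Spred2 by 0.86 ± 0.22 (adjusted p = 0.0174). Dusp16, a phosphatase of JNK and p38 also named after its value was seen, rose by 1.06 ± 0.22 in that comparison (limma adjusted p = 0.00593). Such rises were not particular to these genes: of the 67 tested genes of all pathway lists, 18 passed there as higher and 3 as lower. Of all tested probe sets 11.9% passed as higher and 16.7% as lower.

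Upstream of ERK, the calls in total RNA are to be read beside the 1.91% of all tested probe sets that passed there, and those in amplified RNA beside 10.3%. Of 11 ligands 0 passed in total RNA, and of 13 receptors Erbb3, a kinase-impaired partner of Erbb2, rose by 0.56 ± 0.10 (SE, limma adjusted p = 0.0207). In amplified RNA Vegfa, an endothelial growth factor, rose by 0.64 ± 0.16 (adjusted p = 0.0297), Hbegf, a ligand of Egfr, fell by 0.57 ± 0.14 (adjusted p = 0.0271), Igf1 fell by 0.85 ± 0.24 (adjusted p = 0.0474) and the receptor Erbb2 fell by 0.66 ± 0.16 (adjusted p = 0.0221). The other probe sets of Vegfa, Hbegf and Igf1 did not pass and gave 0.10, 0.05, 0.07 and -0.24. The RAS-RAF-MEK-ERK core had 0 of 14 past the threshold in total RNA. In amplified RNA the ubiquitin ligase Cbl fell by 1.27 ± 0.21 (limma adjusted p = 0.00298) and the adaptor Gab1 rose by 0.50 ± 0.12 (adjusted p = 0.0264), while the further Gab1 probe sets 1417694_at and 1448814_at gave 0.35 and -0.30 and did not pass. The JNK kinases Mapk8 and Mapk9 rose by 0.64 ± 0.15 and 0.58 ± 0.15 in amplified RNA (limma adjusted p = 0.0219 and 0.0354), but their further tested probe sets, 1437045_at and 1421876_at, gave -0.80 and -0.39. In total RNA 0 of 9 p38 and JNK pathway kinases passed. Of the genes called in amplified RNA, Vegfa, Hbegf, Cbl and Mapk9 had the opposite sign in total RNA (-0.35, 0.50, 0.21 and -0.10). Igf1, Erbb2, Gab1 and Mapk8 had the same sign there (-0.39, -0.25, 0.17 and 0.26). The fall of Cbl rests on deposited intensities of 8.3 and 12.4 in contralateral amplified RNA, near the offset of 11.8. Of the genes named here, Cbl kept its call whichever array was left out. Those of Hbegf, Erbb2, Gab1, Mapk8, Mapk9 and Igf1 were lost when either normal amplified array was left out (adjusted p of 0.0788 to 0.304), that of Vegfa without normal amplified array 2 (0.260) or contralateral amplified array 2 (0.125), and that of Erbb3 when any 1 of the 4 total RNA arrays was left out (0.0601 to 0.171) or either normal amplified array was (0.0524 and 0.0519). Gab1, Mapk8, Mapk9, Igf1 and Erbb2 also lost theirs without contralateral amplified array 1, and Hbegf and Erbb2 without contralateral amplified array 2. The Igf1 call was also lost when either contralateral total array was left out, and with the replicate number as a block (adjusted p = 0.0545).

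**Figure D4:**
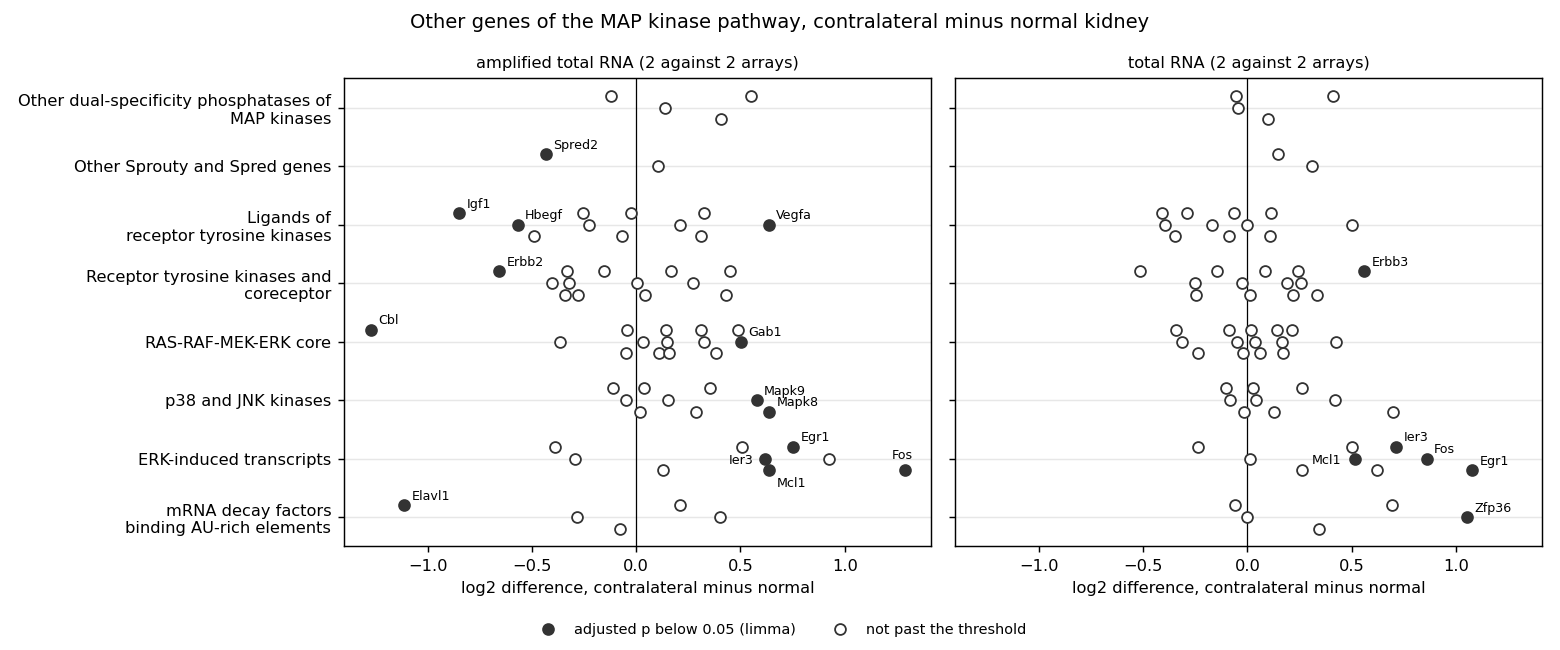
Difference of normalized log2 signal, contralateral minus normal (x axis), for the tested genes of 8 lists (rows, 1 point per gene) in amplified RNA (left) and total RNA (right), filled and named where the limma adjusted p is below 0.05. The 4 filled ERK-induced transcripts lie right of 0 in both panels.

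The genes whose pattern was most like each member's were ranked by Pearson's r of normalized log2 signal over the 10 arrays, as a description. For Dusp1 these were Klf6 (r = 0.91), Tmem62 (0.90) and Cyp24a1 (0.89). For Dusp6 they were Lats2 (0.99), Zfand6 (0.99) and Ash2l (0.98), and for Spry1 they were Slc19a2 (0.98), Gdap2 (0.98) and Strn (0.98). For Spry2 1436584_at they were Phlda1 (0.98), Psmd11 (0.97) and Trim8 (0.95). Over the 8 arrays without newly transcribed RNA, r with the first of these was 0.95 for Dusp1, 0.96 for Dusp6, 0.85 for Spry1 and 0.98 for Spry2. The Spry4 probe set 1422020_at, below the filter, was most like Zdhhc6 (0.95), Dpysl3 (0.93) and Amelx (0.90). Arrays of a preparation share its handling, which these values do not separate from the kidneys.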

How the data were processed

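RNA of contralateral and normal mouse kidneys was hybridised to 10 arrays after T7-based biotin labelling, per the labels' protocols, which also describe linear amplification. No source used here gives the enrichment of newly transcribed RNA, the summary algorithm or any scaling. The authors deposited 1 linear signal intensity per probe set and array.

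After 64 control probe sets were set aside, log2(intensity + 11.8) was taken (11.8 being the 25th percentile of the deposited values) and quantile normalized. The filter at the 40th percentile of mean signal left 13575 probe sets. Models were fitted with limma 3.58.1 under R 4.3.3, by lmFit and by eBayes with trend, and p-values were adjusted by Benjamini-Hochberg over these probe sets at a threshold of 0.05. Kidney groups were compared within a preparation by 6 group means (4 residual degrees of freedom), and preparations by a model with additive terms for kidney and for preparation (6). With 1 newly transcribed array for each kidney group, no test was made between them, and 2-fold was the threshold there. The fit was tested on simulated data: of probe sets changed by 1 log2 unit, 90% were recovered in total, 86% in amplified RNA, 36% for newly transcribed against amplified and 73% for amplified against total RNA. In the same order, 15, 14, 2 and 7 unchanged probe sets were called. The simulated arrays varied independently, and simulated preparation changes were the same in both kidneys, unlike those of Dusp1 and Dusp6. The number of arrays limits the precision.

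Of the probe sets, 20380 have 1 gene symbol in the platform annotation, 691 have several and 1555 are unnamed. The members, pathway lists and marker lists were chosen with earlier results of these data known. Named genes were all member probe sets, up to 3 called genes with the largest change per list in the total and in the amplified comparison (a gene by its brightest probe set), and the 3 genes most like each member; genes outside this rule are marked. Alternatives were the offset (1 or 50), median scaling, no filter or the 60th percentile, no intensity trend, a replicate block, and leaving out arrays.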

Additional observations from a re-analysis of the deposited data

Results flagged for a closer look

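Some of the members' differences ran in opposite directions on arrays that share a contrast. Where contralateral and normal kidneys were compared, 1 side rests on a single newly transcribed array per kidney group. Where newly transcribed and amplified RNA were compared, both sides rest on a single newly transcribed array each. None of these differences between contrasts was tested. Dusp1 was lower in the contralateral than in the normal kidney in newly transcribed RNA (-0.60 in normalized log2 signal), whereas it was higher in amplified RNA (0.73) and in total RNA (1.20). Spry2 1436584_at was higher in the contralateral kidney in newly transcribed RNA (0.80), whereas it was lower in amplified RNA (-0.51) and in total RNA (-0.11), the last of these being smaller than its standard error. Between the newly transcribed arrays such values were common. The Dusp1 value lay between the 25th and 75th percentile of all tested probe sets (-0.73 and 0.64), and 2712 of the 13575 exceeded the Spry2 value. Newly transcribed minus amplified RNA was -0.76 in contralateral and 0.56 in normal kidneys for Dusp1. For Dusp6 it was -2.61 in contralateral and 1.47 in normal kidneys. The contralateral newly transcribed array had the lowest median intensity of the 10, 18.6, and the highest Gapdh 3′ to 5′ ratio, 68.9, and the part of these in the opposite directions was not tested. The groups of kidney and preparation hold 1 or 2 arrays each, fewer than the 4 that a check for single outlying arrays would need.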

How the results depend on the processing

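Of the counts of member probe sets past the threshold, 66 of the values recomputed under alternatives stayed within 1.5 times the reported count and 10 moved. For amplified against total RNA the count of 1 became 2 with median scaling, 0 with the filter at the 60th percentile, which removes Spry2, and 3 without the 2 newly transcribed arrays. Of all tested probe sets 43.0%, 44.5% and 58.2% passed in these settings, beside 38.4% as reported. Without single arrays the Dusp6 difference ran from 0.69 to 1.10 and the Dusp1 difference from -0.65 to -0.37. For newly transcribed against amplified RNA the count of 2 became 1 with the filter at the 60th percentile and ranged from 2 to 4 without single arrays. Between the newly transcribed arrays the count of 1 became 3 of 7 with no filter. There 24.5% of all probe sets differed at least 2-fold, beside 32.8% as reported. Contralateral minus normal, Dusp1 ran from 0.61 to 0.85 in amplified and from 1.10 to 1.31 in total RNA over all settings. These ranges are a description, since the genes were picked with this contrast known. The reversed values were those of newly transcribed against amplified RNA without the contralateral newly transcribed array, 1.44 for Dusp6 and 0.68 for Dusp1; without the normal newly transcribed array they were -2.60 and -0.89. The calls of Spry1 and Spry2 1436584_at as higher in newly transcribed RNA held in every alternative in which they were tested.

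Over all tested probe sets, the count for total RNA was 259 and became 87 with no filter, 145 with no intensity trend, and 48 to 377 without single arrays; for amplified RNA it was 1400 and became 513 to 1417 without single arrays. Between the newly transcribed arrays 4458 became 2794 with an offset of 50. For newly transcribed against amplified RNA 3885 became 6732 without the normal newly transcribed array. For amplified against total RNA 5209 became 7907 without the 2 newly transcribed arrays, and with median scaling 70.1% of its calls were higher, against 54.1% as reported. The causes of these shifts were not tested.

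Replicate numbers recur across groups. The same-numbered arrays of total and amplified RNA deviated together only weakly, with a correlation over probe sets of 0.0998 in contralateral and 0.0971 in normal kidneys, so the numbers were not taken as pairs. With a replicate block the member counts were 1 in total, 1 in amplified, 2 for newly transcribed against amplified and 1 for amplified against total RNA, as without it. Of all tested probe sets 2.04%, 10.5%, 19.5% and 34.5% passed with the block, in the same order. Of the named genes Igf1 in amplified RNA lost its call (limma adjusted p = 0.0545).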
